A study of Mus musculus with 24 samples.

Results

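The genes described here are 31 mouse genes of the NRF2, glutathione, thioredoxin and pentose phosphate systems, followed across macrophages of 2 sources before and during co-culture. They were chosen by symbol, as a list of members whose Ensembl identifiers were matched in the deposited count table. All 31 of the listed symbols were found, each in 1 row, among 47643 gene rows in all, and all 31 passed the filter on low counts. The rule used symbols alone, but the list itself was drawn up with earlier results of these data known, so its counts are a description.

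NRF2 (Nfe2l2) is a transcription factor that KEAP1 holds at a low level by directing its ubiquitination, and that accumulates when electrophiles or oxidants modify KEAP1. With small MAF proteins it binds antioxidant response elements and raises genes that import cystine, make and recycle glutathione, reduce thioredoxin and peroxiredoxins, and supply NADPH through the pentose phosphate pathway and malic enzyme. In macrophages these systems buffer the oxidants made during phagocytosis and iron and heme handling.

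The series compared macrophages derived from mouse induced pluripotent stem cells (iPSC, called iMac and, after co-culture, iMicro in the design text) with macrophages derived from bone marrow (BM, BM-Mac and BM-Micro). Each source was sampled at day 0 without co-culture and at days 3, 6 and 12 of co-culture, which gives 8 groups of 3 libraries, described as independent replicates, and the day 0 cells are the controls from the same batch. The later days thus differ from day 0 both in co-culture and in time. The strain, genotype, age, iPSC clone and co-cultured cells are not given in the sources used here. RNA was measured in bulk by SMART-seq v2 from 2 ng of total RNA, and a value is the number of read pairs over a gene's exons, given below as CPM, the count relative to the scaled library size.

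Promoter windows were read for the members from RefSeq (GRCm38.p6, the patch release of the build the counts use), and 27 of the 31 genes had at least 1 window, 37 windows in all. The antioxidant response element core TGACNNNGC was searched on both strands in the 250 bases before each start. It was present in 7 of the 37 windows (18.9%) and in 7 genes, against 10.2% of 32851 mouse windows of that length. A match is a string of letters and does not show binding, and a window without it says nothing of elements further away. The 5 windows below, all from the 7 with a match, are shown because their genes cover patterns described later. Gclm, Txnrd1 and Prdx1 are from the glutathione and thioredoxin systems, G6pdx is from the pentose phosphate pathway, and Mgst1 changed the opposite way. The windows run 5′ to 3′ on the gene's strand, with the match in capitals. All 5 matches are on the strand opposite to the gene, so they read GCNNNGTCA. The other genes with a match were Nfe2l2 and Sod1, neither called in any comparison with all libraries. Genes without a match include Slc7a11, Srxn1, Sqstm1, Nqo1, Gss and Tkt, all called lower at iPSC day 12. Further windows of Txnrd1 and Mgst1 also held none. Whether a match goes with the changes below was not tested.
Gclm, chr3:122245307-122245556, plus strand, match 134 bases before the start: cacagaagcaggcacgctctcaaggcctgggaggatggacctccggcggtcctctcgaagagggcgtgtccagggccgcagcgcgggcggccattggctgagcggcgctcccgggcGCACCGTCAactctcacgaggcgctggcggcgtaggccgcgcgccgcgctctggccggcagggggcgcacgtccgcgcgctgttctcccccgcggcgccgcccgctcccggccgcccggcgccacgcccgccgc
Txnrd1, chr10:82858956-82859205, plus strand, match 92 bases before the start: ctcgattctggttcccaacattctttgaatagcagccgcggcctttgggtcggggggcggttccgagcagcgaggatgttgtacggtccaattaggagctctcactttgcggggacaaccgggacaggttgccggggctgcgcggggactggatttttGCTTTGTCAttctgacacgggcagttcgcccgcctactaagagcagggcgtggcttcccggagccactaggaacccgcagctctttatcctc
Prdx1, chr4:116685349-116685598, plus strand, match 133 bases before the start: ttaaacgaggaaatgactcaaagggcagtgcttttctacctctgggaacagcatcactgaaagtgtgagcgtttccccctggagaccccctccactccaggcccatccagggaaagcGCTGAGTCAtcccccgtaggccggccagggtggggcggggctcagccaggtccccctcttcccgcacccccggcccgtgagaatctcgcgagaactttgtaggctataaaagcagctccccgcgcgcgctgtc
G6pdx, chrX:74428881-74429130, minus strand, match 57 bases before the start: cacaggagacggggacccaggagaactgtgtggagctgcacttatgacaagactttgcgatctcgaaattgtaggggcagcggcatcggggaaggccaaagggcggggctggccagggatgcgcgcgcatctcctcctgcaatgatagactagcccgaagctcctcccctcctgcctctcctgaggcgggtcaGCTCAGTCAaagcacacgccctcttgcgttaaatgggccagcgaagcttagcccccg
Mgst1, chr6:138140277-138140526, plus strand, match 56 bases before the start: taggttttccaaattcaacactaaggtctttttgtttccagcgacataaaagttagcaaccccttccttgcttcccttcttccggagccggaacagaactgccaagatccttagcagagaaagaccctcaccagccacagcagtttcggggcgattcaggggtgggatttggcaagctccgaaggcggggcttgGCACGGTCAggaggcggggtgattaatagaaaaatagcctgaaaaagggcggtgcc

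The libraries held 5839316 to 11805478 counts, and log-scale profiles of replicates correlated at 0.921 to 0.969 across genes. Macrophage markers (8 of 8 genes, among them Csf1r, Adgre1 and Cd68) were detected in every group, with a summed level of 6649.9 to 9633 CPM in iPSC day 0, 9895 to 32496 in the co-cultured iPSC groups and 25665 to 43541 in the BM groups, so this sum was lowest in the group where most redox genes were highest. Neuron markers (6 genes) summed to 2.95 CPM or less at day 0 and to 9.31 to 47.3 CPM in co-culture, and astrocyte markers (6 genes) to 15.1 to 50.3 CPM at day 0 and 21.6 to 96.2 CPM in co-culture. Oligodendrocyte markers (7 genes) summed to 57.6 to 125 CPM at day 0 and 75.2 to 308 CPM in co-culture. Fibroblast and mural markers (6 genes) summed to 1.56 to 17.6 CPM at day 0, 12.8 to 58.7 CPM at iPSC day 3, 247 to 592 at iPSC day 6 and 201 to 327 at iPSC day 12. In BM co-culture they summed to 12.6 to 22 CPM at day 3, 17.9 to 37.4 at day 6 and 62.3 to 79.9 at day 12. Neutrophil markers (4 genes, with Mpo at 0 in all groups) reached 1.03 CPM at most and erythroid markers (5 genes) 4.27 CPM. The part of these other cells in the changes below was not tested, and in bulk RNA fewer cells of a type and less RNA per cell cannot be told apart. Replicate 3 of iPSC day 3 and of iPSC day 6 stood apart within their groups, with 5.64% and 5.27% of counts in genes under 1000 exon bases against 1.95% to 3.42% in the other libraries of those groups and 5.10% to 5.77% in iPSC day 0. The same share was 2.57% to 3.46% at iPSC day 12. In BM cells it was 4.55% to 4.79% at day 0, 4.76% to 6.09% at day 3, 2.80% to 3.43% at day 6 and 3.09% to 4.00% at day 12. It was thus lower at day 12 than at day 0 in every library of both sources, and its part in the changes below was not tested. Counting ignored strand, and 14 of the 31 genes overlap another annotated gene, for example Sqstm1 with Mrnip, G6pdx with Ikbkg and Prdx2 with Rnaseh2a, so antisense reads cannot be told from sense ones and pairs over shared exons were not counted.

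The first question was which of the 31 genes differ in iPSC-derived macrophages after co-culture from the cells without it. Most were lower at every later day. At day 12 Slc7a11, the cystine importer, had a log2 fold change of -4.92 ± 0.79. Srxn1, the enzyme that restores overoxidised peroxiredoxins, had -3.12 ± 0.29, and Sqstm1, the autophagy receptor that binds KEAP1, -2.81 ± 0.19. Mgst1, a membrane-bound glutathione transferase, was the member that rose, by 1.59 ± 0.29. A gene was called when its p, from edgeR's quasi-likelihood test adjusted by the Benjamini-Hochberg method over all 15000 tested genes, was below 0.05, and every log2 fold change is given with its standard error.

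At iPSC day 3, 16 of 31 members were called lower, against 8.14% of all tested genes, and 1 higher, against 11.2%. At day 6 there were 20 lower, against 11% of tested genes, and 1 higher, against 14.3%. At day 12 there were 23 lower, against 10.7%, and 1 higher, against 14%, and the members' median log2 fold change was -1.43 where that of all tested genes was 0.04. The same 16 genes were lower at all 3 days: Abcc1, G6pdx, Gclc, Gclm, Gsr, Gss, Gstm1, Osgin1, Pgd, Prdx1, Prdx6, Slc7a11, Sqstm1, Srxn1, Taldo1 and Tkt. Keap1, Txnrd1, Gsto1 and Cat joined them at days 6 and 12, and Txn1, Blvrb and Nqo1 at day 12. The 3 comparisons share the iPSC day 0 libraries, and the share of all tested genes lower at all 3 days was not counted. Without iPSC day 3 replicate 3 and iPSC day 6 replicate 3, the calls numbered 20 at day 3, 27 at day 6 and 25 at day 12, with 16, 20 and 24 of the original calls among them.

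Leaving out those 2 libraries changed the following calls. At iPSC day 3, Txn1 (-1.61, adjusted p = 5.8e-05), Cat (-0.62, adjusted p = 0.030), Gpx4 (-0.63, adjusted p = 0.022) and Sod1 (-0.58, adjusted p = 0.023) were then lower, and Gclm was no longer called (-1.30, adjusted p = 0.12). At iPSC day 6 the added calls were all lower: Txn1 (-1.89, adjusted p = 8.8e-06), Blvrb (-1.20, adjusted p = 0.0059), Nqo1 (-3.91, adjusted p = 0.045), Gpx1 (-1.01, adjusted p = 0.0045), Gpx4 (-0.96, adjusted p = 7.3e-04), Prdx5 (-0.80, adjusted p = 0.0094) and Sod1 (-0.82, adjusted p = 0.0014). Keap1 lost its call there (-0.43, adjusted p = 0.094), and at iPSC day 12 Sod1 was added (-0.52, adjusted p = 0.015). All libraries share 1 fit, and BM calls moved too. Gpx1 (0.86, adjusted p = 0.0065) was then higher and Gpx4 (-0.51, adjusted p = 0.034) lower at BM day 3. Gclc (0.83, adjusted p = 0.033) was higher and Sod1 (-0.68, adjusted p = 0.0029) lower at BM day 6, and Txn1 (0.78, adjusted p = 0.0094) and Prdx5 (0.63, adjusted p = 0.017) were higher at BM day 12.

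In BM-derived macrophages the same genes moved in both directions, and mostly upward at day 3. Me1, the cytosolic malic enzyme that makes NADPH, had a log2 fold change of 4.64 ± 0.96 at day 3, and Slc7a11 3.75 ± 0.78. Gsr, glutathione reductase, had 2.26 ± 0.38, and Gclm, the modifier subunit of the enzyme that begins glutathione synthesis, 2.05 ± 0.56. Gstm1, a cytosolic glutathione transferase, was lower (-1.12 ± 0.21). At BM day 3, 10 members were called higher, against 11.9% of all tested genes, and 2 lower, against 6.61%. At BM day 6 there were 4 higher, against 12.7%, and 6 lower, against 6.89%. At BM day 12 there were 4 higher, against 14.7%, and 8 lower, against 9.08%, so the share called higher was near or below that of all genes at these later days. Without scaling factors the split at day 12 became 6 higher and 5 lower. Me1 and Txnrd1 were higher at all 3 days, and G6pdx and Gstm1 lower at all 3. These comparisons share the BM day 0 libraries, and the shares of all tested genes with these patterns were not counted.

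In BM cells 6 of the 12 calls at day 3, 3 of the 10 at day 6 and 5 of the 12 at day 12 held whichever library was left out, where in iPSC cells 14 of 17, 18 of 21 and 20 of 24 did. The day 6 count fell to 5, 6 and 3 without BM day 0 replicate 1, BM day 6 replicate 2 and BM day 6 replicate 3. The day 12 count fell to 6 without BM day 0 replicate 1 and also without BM day 12 replicate 3. All libraries share 1 estimate of each gene's spread, so the numbers that held do not rank the sources by reproducibility. Chi-square per degree of freedom between replicates was 6.40 to 20.5 in BM groups and 13.2 to 138 in iPSC groups. With only the groups compared, 19 and 17 members were called at BM days 3 and 6, and 14 and 18 at iPSC days 3 and 6. The share of all tested genes whose calls held was not counted.

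**Figure D1:**
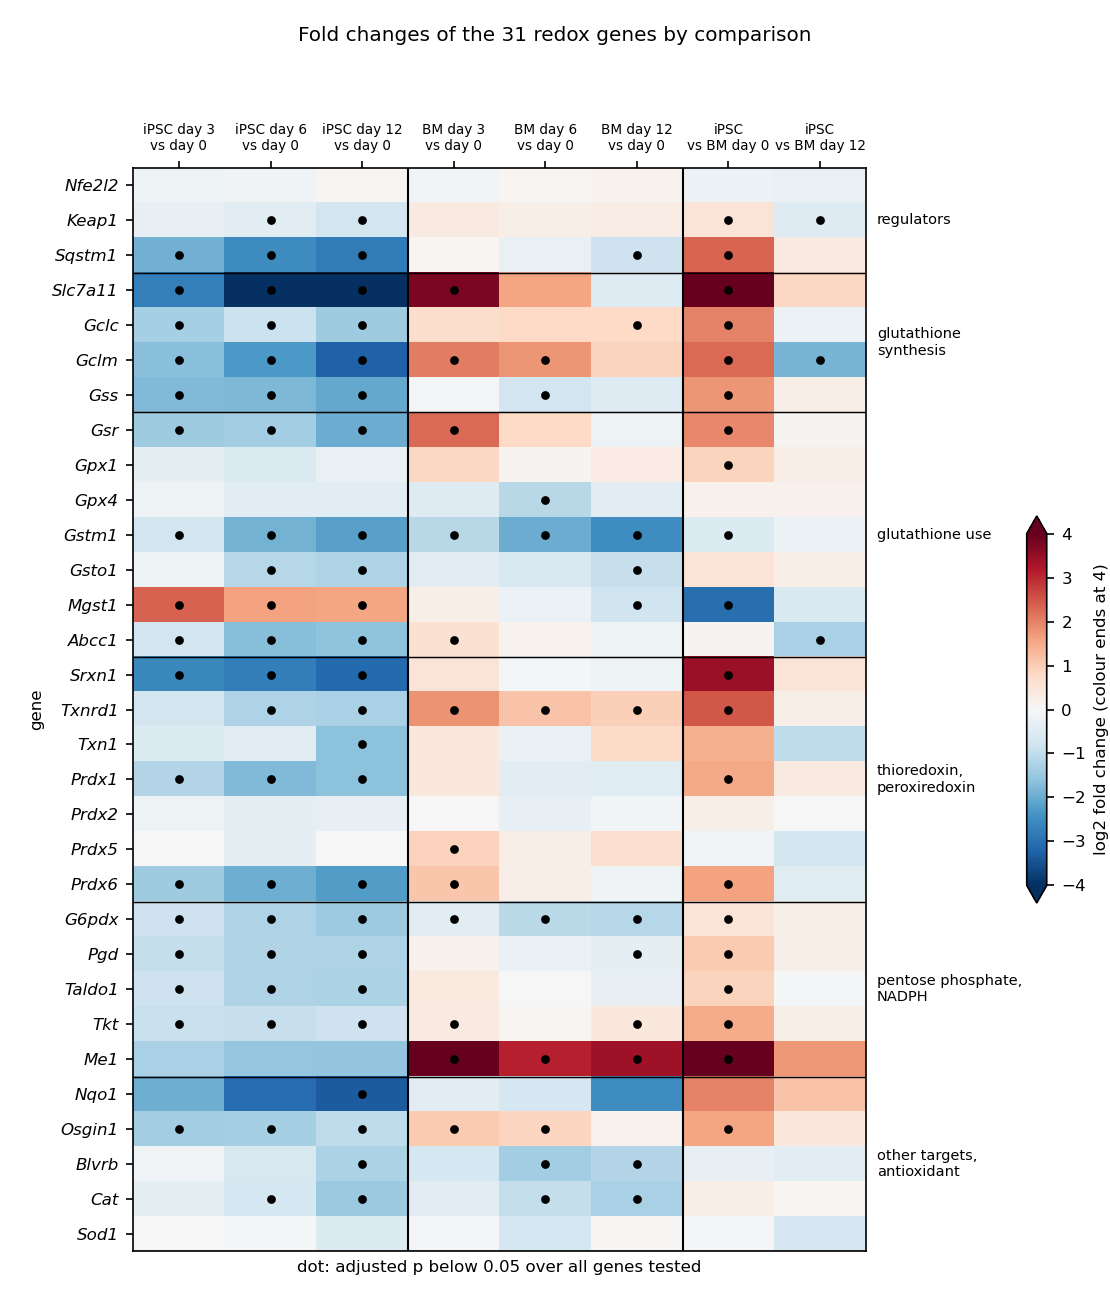
Log2 fold change (colour, from -4 to 4, values beyond that at the end colour) of the 31 genes (rows, by role) in 8 comparisons (columns), with a dot where the adjusted p was below 0.05. The iPSC columns are mostly blue, with 16, 20 and 23 genes called lower at days 3, 6 and 12, and Mgst1 is red in all 3; the BM columns hold 10 genes called higher at day 3 and 4 at each later day.

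Among the regulators, Sqstm1 fell, Keap1 was lower late in iPSC cells and Nfe2l2 was not called. Nfe2l2 (ENSMUSG00000015839.6, chr2:75675513-75704641, minus strand; all member positions are mm10 gene spans and counts are over exons) read 271, 249 and 287 CPM in the 3 iPSC day 0 libraries, 244, 241 and 221 at day 3, 244, 262 and 231 at day 6 and 284, 333 and 236 at day 12. In BM cells Nfe2l2 read 327, 286 and 346 at day 0 and 308, 256 and 318 at day 3, then 372, 329 and 305 at day 6 and 376, 349 and 328 at day 12. Its largest value was 376 CPM and its smallest 221, and it was called in none of the 12 comparisons (log2 fold change 0.08 ± 0.13, adjusted p = 0.71 at iPSC day 12 and 0.14 ± 0.13, adjusted p = 0.50 at BM day 12). RNA level does not report NRF2 protein, which is set largely by its degradation.

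Keap1, the adaptor that marks NRF2 for ubiquitination (ENSMUSG00000003308.14, chr9:21229730-21239332, minus strand), read 67.9, 88.4 and 72.0 CPM at iPSC day 0 and 64.9, 59.8 and 57.6 at day 3. At day 6 Keap1 read 48.7, 65.1 and 52.0, and at day 12 40.0, 49.6 and 48.3. In BM cells Keap1 read 57.2, 51.2 and 52.8 at day 0 and 62.7, 73.2 and 71.2 at day 3, then 64.0, 63.2 and 62.7 at day 6 and 84.7, 57.8 and 55.2 at day 12. All 3 iPSC day 12 libraries lay below all 3 of day 0, and the gene was lower there (-0.73 ± 0.17, adjusted p = 0.0022), while no BM day was called. The call at iPSC day 6 (-0.46 ± 0.17, adjusted p = 0.043) was lost without iPSC day 0 replicate 2 or 3, iPSC day 6 replicate 1 or 3, BM day 3 replicate 2 or 3 or BM day 6 replicate 1, 2 or 3 (adjusted p up to 0.19).

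Sqstm1 (ENSMUSG00000015837.15, chr11:50199366-50210827, minus strand) read 4733, 4398 and 2089.5 CPM at iPSC day 0 and 953, 892 and 1093 at day 3. At day 6 Sqstm1 read 629, 701 and 623, and at day 12 559.7, 535 and 509. In BM cells Sqstm1 read 742, 701 and 768 at day 0 and 686, 789 and 869 at day 3, then 585, 584 and 624 at day 6 and 442, 398 and 400.3 at day 12. Replicate 3 was the lowest of the iPSC day 0 libraries and still lay above every co-cultured library. The gene fell at every iPSC day (-2.81 ± 0.19, adjusted p = 2.4e-10 at day 12), and in BM cells at day 12 (-0.84 ± 0.18, adjusted p = 0.0013). Per kilobase of exon Sqstm1 and Prdx1 had the highest means of the 31 genes at iPSC day 0, 1114 ± 429 and 1054 ± 143 CPM per kb (SD, 3 libraries), which do not differ beyond their spread. Slc7a11 was at 7.61 CPM per kb.

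**Figure D2:**
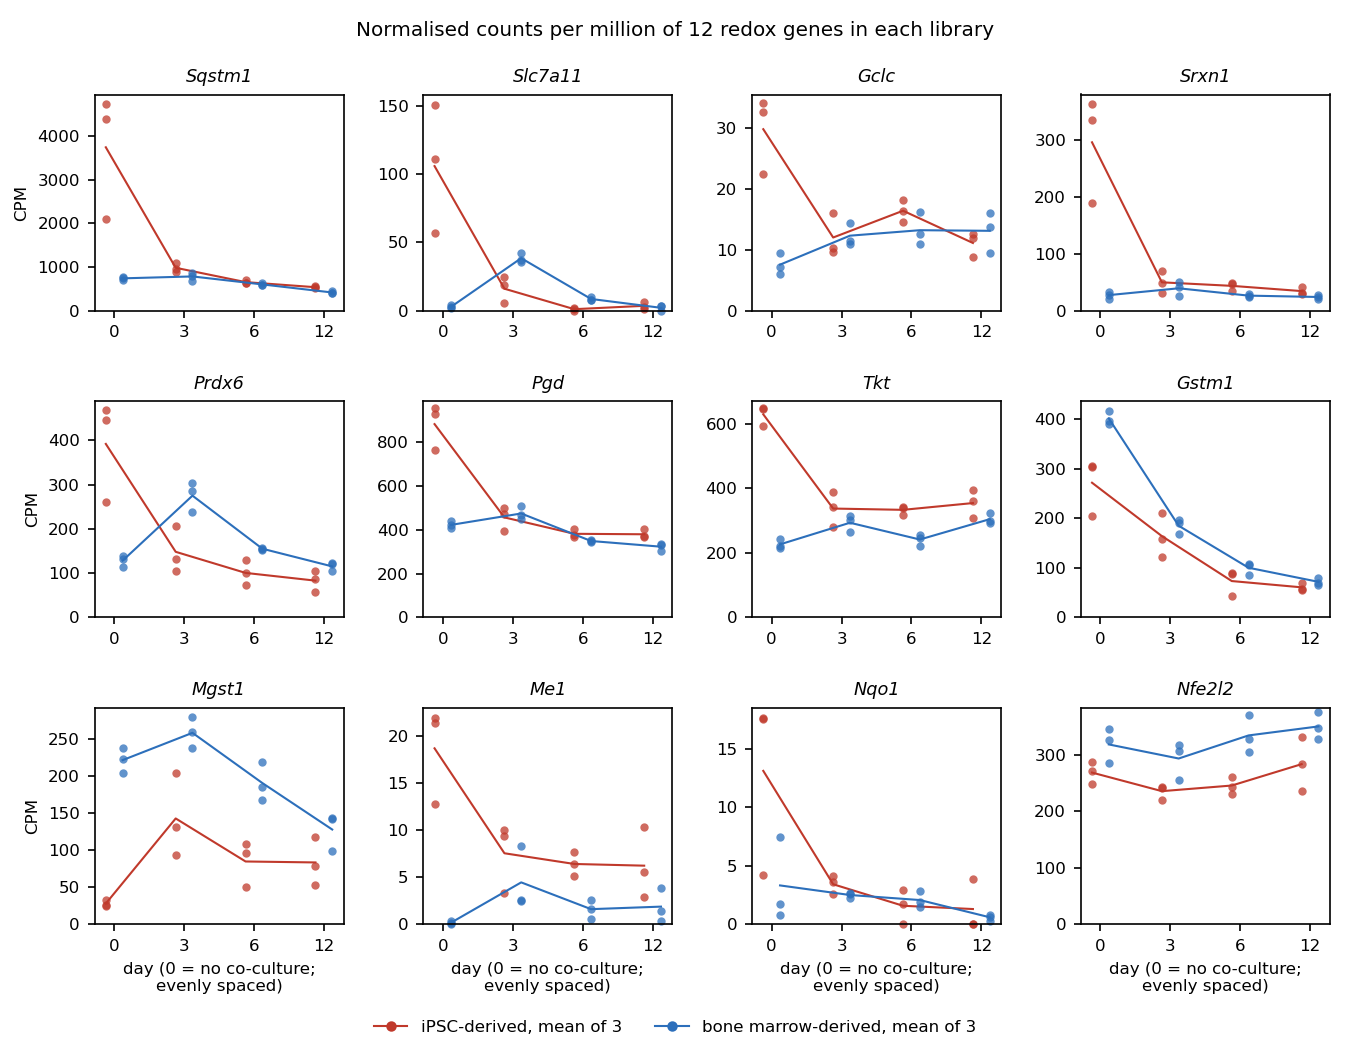
CPM (linear axes from 0) of 12 members against day, with 1 point per library and a line through the mean of 3, iPSC-derived in red and BM-derived in blue. Sqstm1, Slc7a11, Srxn1 and Pgd drop from day 0 in red, Slc7a11 and Prdx6 peak at day 3 in blue, Gstm1 declines in both colours, Mgst1 starts at 24.6 to 32.4 CPM in red and Nfe2l2 keeps to 221 to 376 CPM throughout.

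All 4 genes of glutathione synthesis and cystine import fell in iPSC-derived cells at each of the 3 days, against 8.14%, 11% and 10.7% of all tested genes. The same 4 were higher in iPSC-derived than in BM-derived cells at day 0, against 18.9% of all tested genes. In BM cells Slc7a11 and Gclm rose at day 3, Gclm still at day 6, and Gclc at day 12, while Gss was lower at day 6.

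Slc7a11, the light chain of the cystine-glutamate exchanger (ENSMUSG00000027737.10, chr3:49892526-50443614, minus strand), read 151, 111 and 56.6 CPM at iPSC day 0 and 18.4, 5.18 and 24.6 at day 3. At day 6 Slc7a11 read 1.38, 0 and 1.56, and at day 12 2.40, 6.54 and 1.42. In BM cells Slc7a11 read 4.00, 1.97 and 2.61 at day 0 and 35.9, 42.4 and 36.8 at day 3, then 9.58, 8.0 and 7.83 at day 6 and 3.01, 2.97 and 0 at day 12. Day 0 libraries of the iPSC source lay above all co-cultured ones, and the BM day 3 libraries lay above all other BM libraries. The gene fell at iPSC days 3, 6 and 12 (-2.72 ± 0.70, -6.70 ± 0.90 and -4.92 ± 0.79; adjusted p = 0.0085, 1.6e-05 and 1.1e-04). It rose at BM day 3 (3.75 ± 0.78, adjusted p = 0.0016), after which BM day 12 was lower than day 3 (-4.28 ± 0.79, adjusted p = 0.0013). The iPSC day 6 libraries together held 27 counts of it, so the size of that fold is imprecise.

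Gclc, the catalytic subunit of glutamate-cysteine ligase (ENSMUSG00000032350.8, chr9:77754535-77794485, plus strand), read 34.1, 32.7 and 22.5 CPM at iPSC day 0 and 10.2, 9.63 and 16.1 at day 3. At day 6 Gclc read 14.5, 18.2 and 16.4, and at day 12 12.5, 8.81 and 11.9. In BM cells Gclc read 7.22, 6.03 and 9.38 at day 0 and 11.5, 14.4 and 10.9 at day 3, then 11, 16.2 and 12.6 at day 6 and 16.0, 9.52 and 13.8 at day 12. The 3 iPSC day 0 libraries were the highest of all 24, and BM day 0 held the lowest group mean. Gclc fell at iPSC day 12 (-1.43 ± 0.29, adjusted p = 5.9e-04). The call at iPSC day 6 (-0.86 ± 0.28, adjusted p = 0.026) was lost without iPSC day 0 replicate 1 or 2 or iPSC day 6 replicate 1 or 3 (adjusted p up to 0.097). The rise at BM day 12 (0.80 ± 0.29, adjusted p = 0.047) was lost without iPSC day 0 replicate 1 or 2, BM day 0 replicate 1 or 2, BM day 3 replicate 1, 2 or 3, BM day 6 replicate 1, 2 or 3 or BM day 12 replicate 1 or 3 (adjusted p up to 0.18).

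Gclm, the modifier subunit (ENSMUSG00000028124.15, chr3:122245557-122270732, plus strand), whose promoter window is printed above, read 72.1, 347 and 233 CPM at iPSC day 0 and 129, 44.1 and 30.8 at day 3. At day 6 Gclm read 14.8, 46.3 and 71.2, and at day 12 31.3, 23.4 and 14.7. In BM cells Gclm read 45.8, 39.9 and 48.5 at day 0 and 143, 193 and 219 at day 3, then 107, 165 and 181 at day 6 and 82.6, 83.1 and 84.8 at day 12. Replicate 1 of iPSC day 0 lay below replicate 1 of iPSC day 3, so these groups overlap, whereas the BM day 3 and day 6 libraries all lay above BM day 0. Gclm fell at iPSC day 12 (-3.24 ± 0.59, adjusted p = 4.7e-04), and rose at BM day 3 (2.05 ± 0.56, adjusted p = 0.014) and day 6 (1.76 ± 0.56, adjusted p = 0.033). The call at iPSC day 3 (-1.68 ± 0.55, adjusted p = 0.039) was lost without iPSC day 0 replicate 2 or 3, iPSC day 3 replicate 2 or 3, iPSC day 12 replicate 2 or BM day 0 replicate 1 or 3 (adjusted p up to 0.19). The BM day 3 call was lost without BM day 0 replicate 2 (adjusted p up to 0.054), and that at BM day 6 was lost without BM day 0 replicate 1, 2 or 3 or BM day 6 replicate 2 or 3 (adjusted p up to 0.096).

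Gss, glutathione synthetase, went from 88.0, 89.7 and 50.7 CPM at iPSC day 0 to 19.4, 15.7 and 20.2 at day 12, with no overlap (-2.04 ± 0.24, adjusted p = 7.0e-07). In BM cells it read 21.4, 25.2 and 20.7 at day 0 and 14.8, 11.7 and 12.5 at day 6, a call (-0.78 ± 0.24, adjusted p = 0.022) that was lost without BM day 0 replicate 2 or BM day 6 replicate 2 or 3 (adjusted p up to 0.097).

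The 7 genes that use glutathione did not all move the same way. Gsr fell in iPSC cells and rose early in BM cells, Gstm1 and Gsto1 were lower at day 12 in both sources, and Mgst1 rose in iPSC cells. At iPSC day 12, 4 of the 7 were lower, against 10.7% of all tested genes, and 1 higher, against 14%. At BM day 12, 3 were lower, against 9.08%. Gpx1 and Gpx4 were not called in the iPSC cells at any day with all libraries, and both were called lower at day 6 without the short-gene-rich pair.

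Gsr, which regenerates reduced glutathione from NADPH (ENSMUSG00000031584.16, chr8:33652523-33698163, plus strand), read 85.8, 184 and 141 CPM at iPSC day 0 and 74.4, 52.1 and 25.8 at day 3. At day 6 Gsr read 28.9, 59.4 and 68.4, and at day 12 48.7, 36.0 and 18.2. In BM cells Gsr read 31.3, 39.4 and 37.0 at day 0 and 161, 186 and 170.2 at day 3, then 53.3, 64.3 and 70.7 at day 6 and 35.3, 23.3 and 35.9 at day 12. Every BM day 3 library exceeded every other BM library. The gene fell at iPSC day 12 (-2.00 ± 0.37, adjusted p = 4.2e-04), rose at BM day 3 (2.26 ± 0.38, adjusted p = 1.4e-04) and was lower at BM day 12 than at BM day 3 (-2.45 ± 0.38, adjusted p = 1.8e-04).

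Gstm1 (ENSMUSG00000058135.12, chr3:108012255-108017973, minus strand) read 303, 306 and 205 CPM at iPSC day 0 and 159, 121 and 211 at day 3. At day 6 Gstm1 read 88.7, 43.4 and 87.4, and at day 12 68.8, 55.2 and 57.7. In BM cells Gstm1 read 418, 396 and 390.3 at day 0 and 168, 191 and 197 at day 3, then 106, 85.7 and 108 at day 6 and 65.9, 79.0 and 69.9 at day 12. Both sources declined at each later day, with log2 fold changes at day 12 of -2.17 ± 0.22 in iPSC cells (adjusted p = 9.9e-08) and -2.49 ± 0.22 in BM cells (adjusted p = 1.3e-08). The call at iPSC day 3 (-0.73 ± 0.21, adjusted p = 0.016) was lost without iPSC day 0 replicate 1 or 2 or iPSC day 3 replicate 1 or 2 (adjusted p up to 0.13). Gstm1 has close paralogs, and reads that map to several places were not counted, so its level is uncertain; the paralog Gstm2 also fell at iPSC day 12 (-2.52 ± 0.45, adjusted p = 1.6e-04).

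Gsto1, an omega-class transferase (ENSMUSG00000025068.7, chr19:47854970-47864790, plus strand), read 168, 183 and 91.6 CPM at iPSC day 0 and 115, 106 and 165 at day 3. At day 6 Gsto1 read 81.8, 39.4 and 80.1, and at day 12 69.0, 54.2 and 67.7. In BM cells Gsto1 read 107, 98.7 and 96.1 at day 0 and 80.2, 71.0 and 74.9 at day 3, then 67.6, 70.4 and 58.3 at day 6 and 42, 62.6 and 54.0 at day 12. The day 12 libraries lay below the day 0 ones in both sources. Gsto1 was lower at day 12 in iPSC cells (-1.22 ± 0.24, adjusted p = 6.3e-04) and in BM cells (-0.93 ± 0.24, adjusted p = 0.0066).

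Mgst1, which conjugates glutathione at membranes and reduces lipid peroxides, read 32.4, 24.6 and 26 CPM at iPSC day 0 and 131, 93.8 and 205 at day 3. At day 6 Mgst1 read 95.8, 49.9 and 108, and at day 12 78.9, 53.5 and 118. In BM cells Mgst1 read 238, 205 and 224 at day 0 and 279.9, 259.6 and 238 at day 3, then 219.7, 186 and 168 at day 6 and 99.1, 142 and 143 at day 12. Every co-cultured iPSC library lay above the day 0 ones, and those of days 6 and 12 lay below all BM day 0 libraries. Mgst1 rose at iPSC day 12 (1.59 ± 0.29, adjusted p = 2.7e-04). The lower level at BM day 12 (-0.80 ± 0.28, adjusted p = 0.040) was called, and that call was lost without iPSC day 12 replicate 1, BM day 0 replicate 1, 2 or 3 or BM day 12 replicate 1, 2 or 3 (adjusted p up to 0.16).

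Abcc1, a transporter that exports glutathione conjugates, fell from 174, 140.3 and 93.1 CPM at iPSC day 0 to 44.7, 46.9 and 40.5 at day 12 (-1.62 ± 0.21, adjusted p = 2.5e-06). Its call at iPSC day 3 (-0.74 ± 0.20, adjusted p = 0.011) was lost without iPSC day 0 replicate 1 or iPSC day 3 replicate 1 or 2 (adjusted p up to 0.1). In BM cells it read 126, 114 and 136 at day 0, 151, 222 and 196 at day 3 and 104, 115 and 107 at day 12, with a call at day 3 (0.60 ± 0.20, adjusted p = 0.038) that was lost without BM day 0 replicate 1, 2 or 3 or BM day 3 replicate 2 or 3 (adjusted p up to 0.17).

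Gpx1 and Gpx4 are selenoenzymes that reduce hydrogen peroxide and lipid peroxides. Gpx1 read 457, 526 and 657 CPM at iPSC day 0 and 414, 471 and 440.4 at day 12 (-0.31 ± 0.29, adjusted p = 0.49), and 321, 299 and 256 and 287, 415 and 396 in BM cells. Gpx4 read 158, 178 and 161 and 124, 107 and 138 in iPSC cells, and in BM cells 147, 158 and 135 at day 0 and 80.2, 67.2 and 57.9 at day 6. The Gpx4 call at BM day 6 (-1.10 ± 0.30, adjusted p = 0.011) was lost without BM day 6 replicate 3 (adjusted p up to 0.057).

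Of the 7 thioredoxin and peroxiredoxin genes, 5 were lower at iPSC day 12, against 10.7% of all tested genes. None was lower than day 0 at any BM day, against 6.61%, 6.89% and 9.08% at BM days 3, 6 and 12. A count of 0 among 7 genes is near those shares. Srxn1, Prdx6, Prdx1, Txnrd1 and Txn1 made up the 5, and Prdx2 and Prdx5 were not called at any iPSC day with all libraries. At BM day 3, Txnrd1, Prdx6 and Prdx5 rose. The count of 0 lower in BM cells comes from edgeR; at an unadjusted p below 0.05 there were also 0, and DESeq2 called 0.

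Srxn1 (ENSMUSG00000032802.8, chr2:152105516-152111376, plus strand) read 336, 363 and 189 CPM at iPSC day 0 and 48.6, 31.2 and 68.9 at day 3. At day 6 Srxn1 read 46.8, 35.2 and 48.1, and at day 12 41.7, 29.7 and 31.3. In BM cells Srxn1 read 27.1, 21 and 33.3 at day 0 and 25.1, 41.5 and 50.7 at day 3, then 24.4, 25.9 and 28.3 at day 6 and 20.4, 26.5 and 24.4 at day 12. The lowest iPSC day 0 library exceeded the highest co-cultured library of either source, and the BM groups overlapped. Srxn1 fell at iPSC days 3, 6 and 12 (-2.58 ± 0.28, -2.77 ± 0.29 and -3.12 ± 0.29; adjusted p = 3.3e-07, 1.3e-07 and 2.5e-08), and no BM day was called.

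Prdx6, a peroxiredoxin that also acts on phospholipids (ENSMUSG00000026701.15, chr1:161240112-161251219, minus strand), read 468, 446 and 261 CPM at iPSC day 0 and 132, 105 and 206 at day 3. At day 6 Prdx6 read 99.2, 72.2 and 129.7, and at day 12 87.4, 57.5 and 104. In BM cells Prdx6 read 132, 139 and 114 at day 0 and 237, 304 and 285 at day 3, then 154, 157 and 153 at day 6 and 104, 123 and 119.8 at day 12. Day 0 was highest among iPSC groups and day 3 among BM groups, without overlap. It fell at iPSC day 12 (-2.24 ± 0.25, adjusted p = 4.8e-07) and rose at BM day 3 (1.10 ± 0.24, adjusted p = 0.0021), and BM day 12 was lower than BM day 3 (-1.25 ± 0.24, adjusted p = 0.0013).

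Txnrd1, thioredoxin reductase of the cytosol (ENSMUSG00000020250.9, chr10:82859206-82897724, plus strand), read 243, 371 and 338 CPM at iPSC day 0 and 274, 145 and 159.9 at day 3. At day 6 Txnrd1 read 72.2, 116 and 219, and at day 12 178, 118 and 87.1. In BM cells Txnrd1 read 47.6, 68.9 and 54.1 at day 0 and 179, 199 and 220.4 at day 3, then 101, 122 and 152 at day 6 and 114, 99.6 and 117 at day 12, with every co-cultured library above every day 0 library. It fell at iPSC day 12 (-1.31 ± 0.32, adjusted p = 0.0045) and rose at BM day 3 (1.81 ± 0.33, adjusted p = 3.5e-04). The BM day 6 call (1.13 ± 0.32, adjusted p = 0.016) was lost without BM day 0 replicate 1 or 3 or BM day 6 replicate 3 (adjusted p up to 0.074). The BM day 12 call (0.95 ± 0.32, adjusted p = 0.036) was lost without BM day 0 replicate 1 or 3 or BM day 12 replicate 1, 2 or 3 (adjusted p up to 0.13).

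Prdx1, whose promoter window holds the match GCTGAGTCA, fell from 3553, 3346 and 2719 CPM at iPSC day 0 to 978, 977 and 1153 at day 12 (-1.63 ± 0.28, adjusted p = 2.0e-04), and BM cells read 1145, 1029.8 and 1196 at day 0 and 652, 893 and 882 at day 12 (-0.47 ± 0.28, adjusted p = 0.24). Txn1, thioredoxin itself, read 122, 117 and 91.1 at iPSC day 0, 43.7, 26.6 and 156 at day 3, 27.3, 32.4 and 183 at day 6 and 34.8, 30.4 and 39.8 at day 12. Replicate 3 was the high library at iPSC days 3 and 6, the libraries of those groups with the largest share of counts in short genes. The Txn1 call at iPSC day 12 (-1.65 ± 0.60, adjusted p = 0.050, just below the threshold) was kept only in the fits without iPSC day 3 replicate 2 or 3 or iPSC day 6 replicate 1, 2 or 3, and lost in the other 19 of 24 (adjusted p up to 0.14). Without both of those libraries Txn1 was called lower at days 3 and 6 too.

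Prdx5, a mitochondrial and peroxisomal peroxiredoxin, read 150.5, 163 and 111 CPM at iPSC day 0, 151, 147 and 134 at iPSC day 12, 151, 164 and 145 at BM day 0 and 279, 337 and 250.3 at BM day 3. Its rise at BM day 3 (0.91 ± 0.26, adjusted p = 0.016) was lost without BM day 0 replicate 1 or 3 or BM day 3 replicate 2 (adjusted p up to 0.074). Prdx2, a cytosolic peroxiredoxin abundant in red cells, had group means of 140.3 to 207 CPM over the 8 groups and was called in no comparison. The thioredoxin, peroxiredoxin and glutathione peroxidase genes have processed pseudogenes, and reads shared with those were not counted, so their levels are uncertain.

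Among the members, the pentose phosphate enzymes G6pdx, Pgd, Taldo1 and Tkt were lower at all 3 days in iPSC-derived cells. The fifth gene of this role, Me1, was not called there. Pgls, Rpia, Rpe and H6pd, other enzymes of the pathway, were counted with a neighbour list, and none was called lower at iPSC day 12. Over all tested genes 8.14%, 11% and 10.7% were lower at iPSC days 3, 6 and 12. All 5 genes of this role were higher in iPSC-derived than BM-derived cells at day 0, against 18.9% of all tested genes. In BM cells G6pdx fell at all 3 days, Pgd was lower at day 12, Taldo1 was not called at any day, and Tkt and Me1 rose.

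G6pdx, which commits glucose 6-phosphate to the pathway and makes NADPH (ENSMUSG00000031400.10, chrX:74409483-74429194, minus strand), read 349, 347 and 407 CPM at iPSC day 0 and 214, 174 and 229 at day 3. At day 6 G6pdx read 158, 139 and 178, and at day 12 136, 149 and 118. In BM cells G6pdx read 273, 212 and 285 at day 0 and 173, 179 and 214 at day 3, then 121, 114 and 128 at day 6 and 129, 113 and 105 at day 12. Both sources declined, with every day 12 library below every day 0 library (-1.45 ± 0.15, adjusted p = 9.0e-08 in iPSC cells; -1.15 ± 0.15, adjusted p = 2.3e-06 in BM cells). The difference at BM day 3 (-0.44 ± 0.15, adjusted p = 0.033) was lost without BM day 0 replicate 1 or 3 or BM day 3 replicate 1 or 2 (adjusted p up to 0.17).

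Taldo1, transaldolase of the non-oxidative branch (ENSMUSG00000025503.4, chr7:141392199-141402968, plus strand), read 609, 607 and 446 CPM at iPSC day 0 and 298, 261 and 378 at day 3. At day 6 Taldo1 read 264, 136 and 299.9, and at day 12 217, 225 and 241. In BM cells Taldo1 read 296, 305 and 299 at day 0 and 374, 380.0 and 419.6 at day 3, then 314, 298 and 289 at day 6 and 199, 271 and 243 at day 12. All iPSC day 0 libraries lay above every other library. It fell at iPSC day 12 (-1.28 ± 0.20, adjusted p = 2.8e-05). BM day 12 was lower than BM day 3 (-0.72 ± 0.20, adjusted p = 0.020), a call that was lost without BM day 3 replicate 3 or BM day 12 replicate 1 or 3 (adjusted p up to 0.11).

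Pgd, the second NADPH-making step, fell from 956, 929 and 766 CPM at iPSC day 0 to 402, 368 and 369.8 at day 12 (-1.22 ± 0.11, adjusted p = 2.0e-08). In BM cells it read 408, 441 and 420.0 at day 0 and 332, 334 and 302 at day 12, a smaller difference (-0.39 ± 0.11, adjusted p = 0.012) that was lost without BM day 0 replicate 2 or BM day 12 replicate 3 (adjusted p up to 0.06). Tkt, transketolase, fell from 646, 648 and 592 at iPSC day 0 to 394, 309 and 359.6 at day 12 (-0.83 ± 0.12, adjusted p = 2.0e-05) and went from 215, 221 and 242 to 298, 324 and 291 in BM cells (0.43 ± 0.12, adjusted p = 0.013). The Tkt rise at BM day 3 (0.37 ± 0.12, adjusted p = 0.036) was lost without BM day 0 replicate 1 or 2 or BM day 3 replicate 2 or 3 (adjusted p up to 0.14), and that at BM day 12 was lost without BM day 0 replicate 1 or BM day 12 replicate 2 (adjusted p up to 0.059).

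Me1 (ENSMUSG00000032418.15, chr9:86581371-86695953, minus strand) read 12.8, 21.4 and 21.9 CPM at iPSC day 0 and 9.34, 3.25 and 9.99 at day 3. At day 6 Me1 read 7.63, 5.08 and 6.44, and at day 12 10.3, 5.5 and 2.83, and none of the 3 days was called (-1.59 ± 0.67, adjusted p = 0.088 at day 12). In BM cells Me1 read 0, 0.348 and 0.130 at day 0 and 2.51, 8.31 and 2.46 at day 3, then 0.532, 2.56 and 1.64 at day 6 and 0.301, 1.39 and 3.87 at day 12. The gene was almost absent at BM day 0, where the 3 libraries held 4 counts together, so the size of its folds is imprecise. It rose at BM day 3 (4.64 ± 0.96, adjusted p = 9.4e-04). The BM day 6 call (3.12 ± 1.01, adjusted p = 0.031) was lost without BM day 0 replicate 1 or 3 or BM day 6 replicate 2 or 3 (adjusted p up to 0.12), and the BM day 12 call (3.40 ± 0.98, adjusted p = 0.013) was lost without BM day 0 replicate 1 or BM day 12 replicate 3 (adjusted p up to 0.13).

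The last role holds other NRF2 targets and antioxidant enzymes, of which 4 of 5 were lower at iPSC day 12, against 10.7% of all tested genes, and 2 of 5 at BM day 12, against 9.08%. Nqo1, the quinone reductase often used to read NRF2 activity (ENSMUSG00000003849.8, chr8:107388225-107403206, minus strand), was scarce: it read 17.6, 17.5 and 4.18 CPM at iPSC day 0 and 4.10, 2.53 and 3.56 at day 3. At day 6 Nqo1 read 0, 1.74 and 2.93, and at day 12 0, 0 and 3.84. In BM cells Nqo1 read 0.773, 7.42 and 1.69 at day 0 and 2.62, 2.57 and 2.23 at day 3, then 1.92, 1.44 and 2.81 at day 6 and 0.802, 0.297 and 0.630 at day 12. Replicate 3 of iPSC day 0 stood near the co-cultured libraries and apart from its 2 replicates, and all 38 counts of iPSC day 12 came from replicate 3. The call at iPSC day 12 (-3.33 ± 1.15, adjusted p = 0.037) was lost without iPSC day 0 replicate 1 or 2 or iPSC day 12 replicate 1 or 2 (adjusted p up to 0.11). Without iPSC day 12 replicate 3 that group held no count, and the fitted value of -9.88 is then no estimate of the fold.

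Cat, catalase, which breaks down hydrogen peroxide in peroxisomes (ENSMUSG00000027187.10, chr2:103453849-103485160, minus strand), read 641, 581 and 421 CPM at iPSC day 0 and 439.5, 259 and 582 at day 3. At day 6 Cat read 302, 307 and 411, and at day 12 221, 151 and 221. In BM cells Cat read 487, 428 and 464 at day 0 and 299.5, 336 and 374 at day 3, then 238, 237 and 245 at day 6 and 204, 187 and 172 at day 12. It fell in both sources by day 12 (-1.47 ± 0.21, adjusted p = 1.2e-05 in iPSC cells; -1.29 ± 0.21, adjusted p = 5.3e-05 in BM cells), with no overlap with day 0. The iPSC day 6 call (-0.69 ± 0.21, adjusted p = 0.017) was lost without iPSC day 0 replicate 1 or 2 or iPSC day 6 replicate 1 or 2 (adjusted p up to 0.088).

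Blvrb, biliverdin reductase B (ENSMUSG00000040466.16, chr7:27447978-27466144, plus strand), read 274, 302 and 204 CPM at iPSC day 0 and 187, 139.9 and 398 at day 3. At day 6 Blvrb read 151, 75.0 and 269, and at day 12 99.0, 64.7 and 159. In BM cells Blvrb read 338, 319 and 317 at day 0 and 185, 231 and 187 at day 3, then 127, 140.4 and 107 at day 6 and 109, 159 and 165 at day 12. Both sources were lower at day 12. The iPSC call (-1.27 ± 0.39, adjusted p = 0.023) was lost without iPSC day 0 replicate 1 or 2 or iPSC day 12 replicate 1 or 2 (adjusted p up to 0.12). The BM call at day 12 (-1.17 ± 0.39, adjusted p = 0.035) was lost without BM day 0 replicate 1, 2 or 3 or BM day 12 replicate 1, 2 or 3 (adjusted p up to 0.13), and that at day 6 (-1.38 ± 0.39, adjusted p = 0.018) was lost without BM day 0 replicate 1 or BM day 6 replicate 1 or 3 (adjusted p up to 0.074).

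Osgin1, an oxidative-stress-induced growth inhibitor, read 122, 133 and 33.5 CPM at iPSC day 0, 37.5, 35.5 and 37.7 at day 3 and 54.2, 47.1 and 40.4 at day 12, with replicate 3 of day 0 the low one, below all 3 iPSC day 12 libraries. It fell at iPSC day 3 (-1.38 ± 0.30, adjusted p = 0.0016), and the day 12 call (-1.03 ± 0.30, adjusted p = 0.013) was lost without iPSC day 0 replicate 1 or 2 (adjusted p up to 0.1). In BM cells it read 33.5, 27.6 and 36.2 at day 0 and 74.1, 57.1 and 71.4 at day 3, a rise (1.06 ± 0.30, adjusted p = 0.014) that was lost without BM day 0 replicate 2 or BM day 3 replicate 1 (adjusted p up to 0.066). The BM day 6 call (0.85 ± 0.30, adjusted p = 0.048) was kept only in the fits without iPSC day 0 replicate 1, 2 or 3, iPSC day 3 replicate 3, iPSC day 6 replicate 2 or 3 or iPSC day 12 replicate 1, 2 or 3, and lost in the other 15 of 24 (adjusted p up to 0.15). Sod1, the cytosolic superoxide dismutase, had group means of 122 to 205 CPM and was called in no comparison with all libraries; at iPSC day 3 its 3 libraries read 137, 109.6 and 318.

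The spread between replicate libraries was itself large for some of these genes. In iPSC groups the highest library exceeded the lowest 4.81-fold for Gclm at day 0, 4.19-fold at day 3, 4.81-fold at day 6 and 2.13-fold at day 12, where the BM groups ranged from 1.03-fold to 1.69-fold. Gclm, Gsr and Txnrd1 ranked the 3 libraries in the same order in 3 of 4 iPSC groups and in 1 of 4 BM groups. They were set by hand and not by a rule, and how often other members or all genes share an order was not counted. At iPSC day 0 these 3 genes put replicate 2 above 3 and 1. Sqstm1, Srxn1, Osgin1, Gss, Slc7a11, Nqo1 and Prdx6 were instead all lowest in replicate 3. Replicate 3 was also the lowest for Cat, Gstm1, Txn1, Prdx1, Pgd, Blvrb, Taldo1, Gclc, Abcc1, Sod1, Prdx5, Gsto1 and Tkt, so for most members. For Nfe2l2, Keap1, Mgst1, Prdx2, Me1, Gpx1, Gpx4 and G6pdx it was not. That library enters every comparison with iPSC day 0. Without it 16, 21 and 23 members were called at iPSC days 3, 6 and 12, against 17, 21 and 24 with all libraries. The libraries of 1 group thus differed in which of the genes were high, and these orders are a description of 3 libraries a group.

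**Figure D3:**
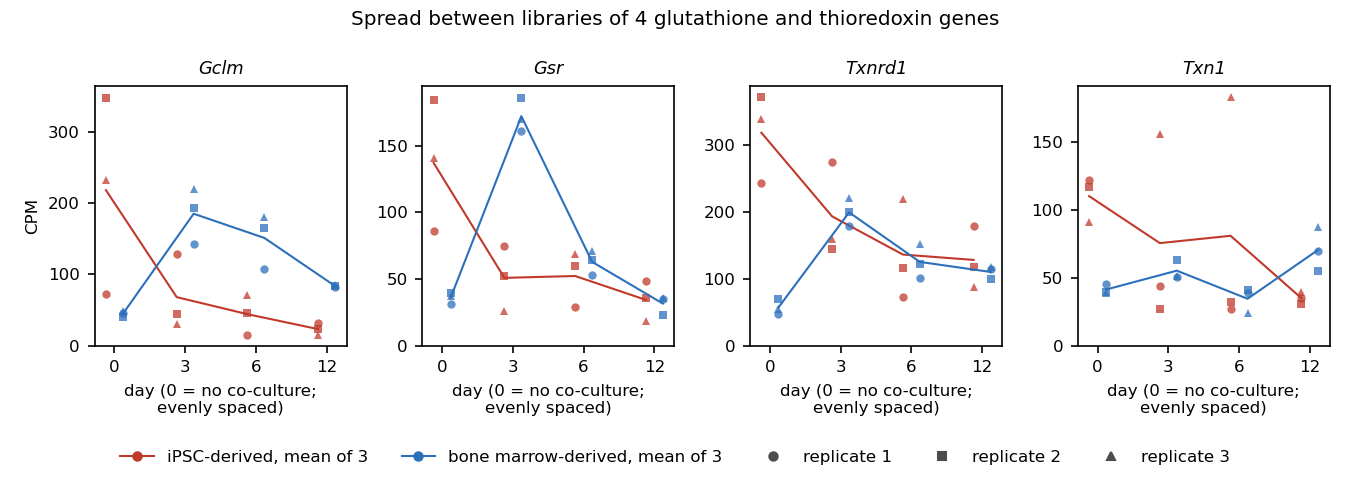
CPM (linear axes from 0) of Gclm, Gsr, Txnrd1 and Txn1 against day, with symbols for replicates 1 to 3, iPSC-derived in red and BM-derived in blue, and lines through group means. At iPSC day 0 replicate 2 is the highest for Gclm, Gsr and Txnrd1, BM points lie close together, and for Txn1 the replicate 3 points of iPSC days 3 and 6 stand at 156 and 183 CPM above the other 2.

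The next question was where the sources differ on the same day. Before co-culture most of these genes were at a higher CPM, a relative level, in the iPSC-derived cells. Slc7a11 was higher than in BM cells by 5.21 ± 0.81 on the log2 scale, Srxn1 by 3.45 ± 0.30, Txnrd1 by 2.48 ± 0.33, Sqstm1 by 2.34 ± 0.19 and Tkt by 1.48 ± 0.13. Mgst1 went the other way, at -3.01 ± 0.30.

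At day 0, 18 of 31 members were called higher in iPSC-derived cells, against 18.9% of all tested genes, and 2 lower, Mgst1 and Gstm1, against 17.1%. The members' median log2 difference was 1.06, and that of all tested genes 0.00. The highest of the 8 group means was iPSC day 0 for 23 of the 31 genes, and the share of all tested genes with that pattern was not counted. The Gstm1 call (-0.56 ± 0.21, adjusted p = 0.040) was lost without iPSC day 0 replicate 3, iPSC day 3 replicate 1 or BM day 0 replicate 1, 2 or 3 (adjusted p up to 0.19). The Keap1 call (0.50 ± 0.17, adjusted p = 0.020) was lost without iPSC day 0 replicate 2 or BM day 0 replicate 2 (adjusted p up to 0.11), and that of Gpx1 (0.90 ± 0.29, adjusted p = 0.020) was lost without iPSC day 0 replicate 3 or BM day 0 replicate 2 or 3 (adjusted p up to 0.088). The G6pdx call (0.52 ± 0.14, adjusted p = 0.0066) was lost without BM day 0 replicate 2 (adjusted p up to 0.051). Without the short-gene-rich pair Txn1 was also higher (1.42, adjusted p = 1.5e-05).

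At day 12 of co-culture, 3 members differed between the sources. Keap1, Gclm and Abcc1 were lower in iPSC-derived cells, against 4.74% of tested genes lower, and 0 were higher by edgeR, against 5.03%; at an unadjusted p below 0.05 there were 2 higher, and DESeq2 called 0. Abcc1 read 44.7, 46.9 and 40.5 CPM in iPSC cells and 104, 115 and 107 in BM cells (-1.30 ± 0.21, adjusted p = 9.6e-05). The calls of Gclm (-1.86 ± 0.57, adjusted p = 0.044) and Keap1 (-0.52 ± 0.17, adjusted p = 0.048) were near the threshold. The Gclm call was kept only in the fits without iPSC day 0 replicate 1 or 2, iPSC day 3 replicate 1, 2 or 3, iPSC day 6 replicate 1 or 3 or BM day 6 replicate 1, and lost in the other 16 of 24 (adjusted p up to 0.13). The Keap1 call was kept only in the fits without iPSC day 0 replicate 1, 2 or 3, iPSC day 6 replicate 2 or BM day 12 replicate 2 or 3, and lost in the other 18 of 24 (adjusted p up to 0.35), and without BM day 12 replicate 1 its log2 difference was -0.30. The count of 3 became 1 without any of 11 single libraries, among them 2 of the iPSC day 12 libraries and BM day 12 replicate 1. Over all tested genes, 18.9% were called higher in iPSC-derived cells at day 0 and 5.03% at day 12, and how many lost the call was not counted. Of the 18 members higher at day 0, 16 were not called between the sources at day 12, with log2 differences from -0.48 ± 0.24 for Prdx6 to 1.72 ± 0.71 for Me1. For the genes named at day 0 they were 0.82 ± 0.80 for Slc7a11, 0.52 ± 0.28 for Srxn1, 0.22 ± 0.32 for Txnrd1, 0.37 ± 0.18 for Sqstm1 and 0.22 ± 0.12 for Tkt. Without the short-gene-rich pair Txn1 (-0.99, adjusted p = 0.0031), Sod1 (-0.64, adjusted p = 0.0077) and Prdx5 (-0.70, adjusted p = 0.017) were also lower, and Keap1 was not called (-0.50, adjusted p = 0.051). A gene that was not called is not shown to be equal.

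**Figure D4:**
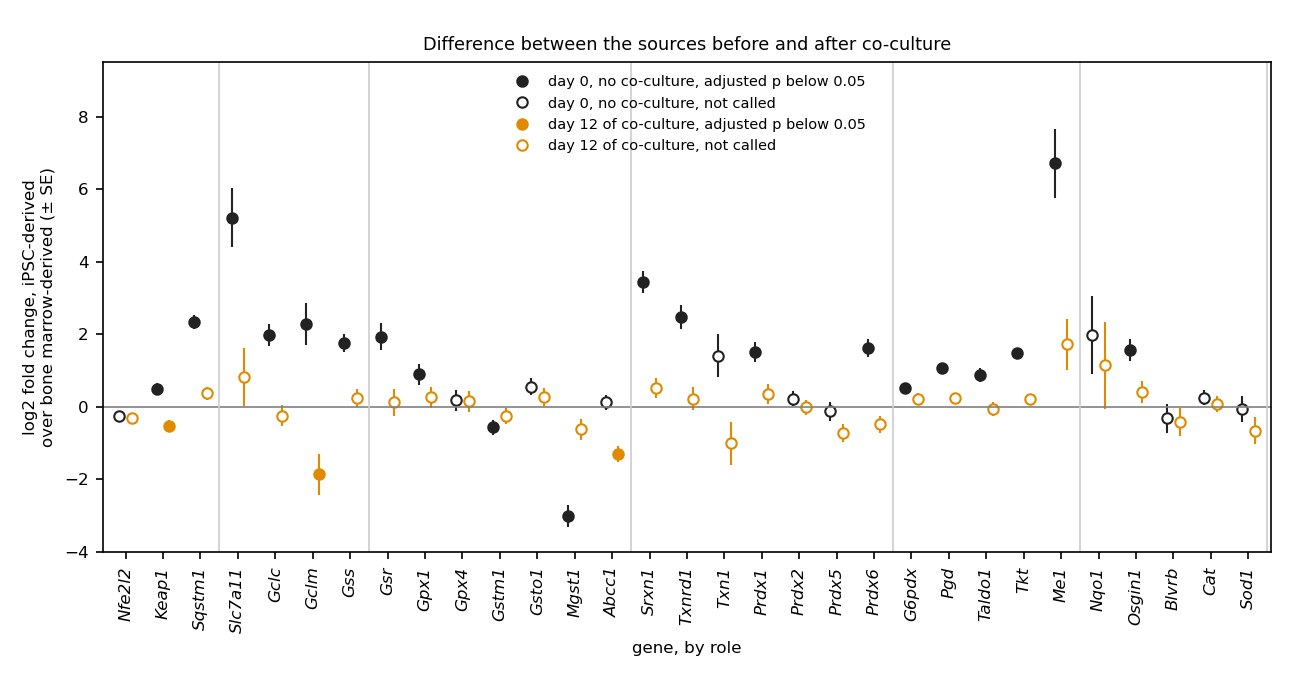
Log2 fold change of iPSC-derived over BM-derived cells, ± SE from the fit, for the 31 genes by role, at day 0 (black) and day 12 (orange), filled where the adjusted p was below 0.05. Filled black points lie above 0 for 18 genes and below for Mgst1 and Gstm1, and the orange points lie between -1.86 and 1.72 with 3 filled, all below 0.

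Whether the change from day 0 differed between the sources was tested as a difference of differences, iPSC minus BM. At day 3 it was lower for 18 members, against 11.5% of all tested genes, and higher for 1, against 9.03%. At day 12 it was lower for 17, against 11%, and higher for 1, against 9.07%. Mgst1 was the higher one at both days (2.15 ± 0.40 at day 3 and 2.39 ± 0.40 at day 12). All 4 genes of glutathione synthesis and cystine import, and Pgd, Taldo1, Tkt and Me1, had a lower difference at both days, for example -3.73 ± 0.79 at day 3 and -4.14 ± 0.80 at day 12 for Gclm. Of the 7 genes lower at day 12 in both sources, Sqstm1 (-1.97 ± 0.26) and Pgd (-0.83 ± 0.16) differed in this test at day 12. The other genes of the 7, G6pdx, Gstm1, Gsto1, Cat and Blvrb, were not called, with values of -0.30 ± 0.21, 0.32 ± 0.30, -0.29 ± 0.34, -0.17 ± 0.29 and -0.10 ± 0.55, in that order. Because both changes start from day 0, where the sources already differed, this test also carries that starting difference. Without the short-gene-rich pair Txn1 (-2.05, adjusted p = 6.7e-05) and Prdx5 (-1.24, adjusted p = 0.0032) were added at day 3 and Keap1 was not called (-0.64, adjusted p = 0.071).

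Between early and late co-culture, days 3 and 12, iPSC-derived cells had 7 members lower at day 12, against 4.82% of tested genes, and 0 higher by edgeR, against 4.07%, with 1 higher at an unadjusted p below 0.05 and 0 by DESeq2. BM-derived cells had 12 lower, against 4.25%, and 0 higher by edgeR, against 4.20%, with 0 at an unadjusted p below 0.05 and 0 by DESeq2. The 7 were Abcc1, Cat, G6pdx, Gsto1, Gstm1, Prdx6 and Sqstm1, of which 5 held whichever library was left out. The Prdx6 call (-0.84 ± 0.24, adjusted p = 0.032) was lost without iPSC day 3 replicate 1 or 3 or iPSC day 12 replicate 1 or 2 (adjusted p up to 0.19), and its log2 value was -0.54 without iPSC day 3 replicate 3. The Gsto1 call (-1.02 ± 0.24, adjusted p = 0.0091) was lost without iPSC day 3 replicate 3 or iPSC day 12 replicate 2 (adjusted p up to 0.057). The 12 were Abcc1, Cat, G6pdx, Gsr, Gstm1, Mgst1, Pgd, Prdx1, Prdx6, Slc7a11, Sqstm1 and Taldo1, of which 7 held. Gstm1 was lower in both (-1.44 ± 0.22 in iPSC cells and -1.37 ± 0.22 in BM cells), as were Cat (-1.11 ± 0.21 and -0.84 ± 0.21), G6pdx (-0.61 ± 0.15 and -0.70 ± 0.15) and Sqstm1 (-0.87 ± 0.18 and -0.92 ± 0.18). Of the 10 members that were up at BM day 3, 4 (Abcc1, Gsr, Prdx6 and Slc7a11) were lower again at BM day 12. Both tests use the BM day 3 libraries, and the share of all tested genes with this pattern was not counted. The Cat call in BM cells was lost without BM day 3 replicate 3 or BM day 12 replicate 3 (adjusted p up to 0.058), and that of Abcc1 was lost without BM day 3 replicate 2 (adjusted p up to 0.079). The Mgst1 call (-1.02 ± 0.28, adjusted p = 0.023) was lost without BM day 3 replicate 1 or 2 or BM day 12 replicate 1 or 2 (adjusted p up to 0.11). The Prdx1 call (-0.89 ± 0.28, adjusted p = 0.049) was kept only in the fits without iPSC day 3 replicate 2 or 3 or iPSC day 6 replicate 2 or 3, and lost in the other 20 of 24 (adjusted p up to 0.18). The iPSC count was 11 without iPSC day 6 replicate 2, a library of neither day, and 14 with no filter on low counts. Without the short-gene-rich pair Prdx6 left the iPSC list and Gclm (-1.92, adjusted p = 0.035) joined it, and Osgin1 (-0.94, adjusted p = 0.047) and Txnrd1 (-0.87, adjusted p = 0.027) joined the BM list.

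Related genes outside the 31 were counted from lists of neighbours. Among 23 other NRF2 regulators and targets, 8 were lower and 2 higher at iPSC day 12, where 10.7% and 14% of all tested genes were. At BM day 12, 6 were lower and 1 higher, where 9.08% and 14.7% of all genes were. Hmox1, heme oxygenase 1, was not called in iPSC cells at day 12. Its group means were 468 ± 119 CPM (SD) at day 0 and 563 ± 121 at day 12 (0.27 ± 0.17, adjusted p = 0.27). In BM cells it rose at day 3, from 413, 385 and 413 to 1621, 1621 and 1634 (2.01 ± 0.18, adjusted p = 7.5e-09), and read 352, 441 and 379 at day 12. Bach1, the repressor that competes for the same elements, was not called at day 12 in iPSC (-0.26 ± 0.21, adjusted p = 0.41) or BM cells (-0.49 ± 0.21, adjusted p = 0.099). Nfe2l1, an NRF2 relative, fell in iPSC cells from 309 ± 33.3 to 122 ± 13 CPM (-1.34 ± 0.16, adjusted p = 7.2e-07), and so did Ptgr1, prostaglandin reductase 1 (-2.14 ± 0.27, adjusted p = 2.5e-06). Ephx1, microsomal epoxide hydrolase (1.35 ± 0.28, adjusted p = 8.3e-04), and Abcc4, an organic anion exporter (1.28 ± 0.29, adjusted p = 0.0019), rose there. In BM cells at day 12, Ftl1, ferritin light chain (-1.46 ± 0.29, adjusted p = 6.7e-04), and Akr1a1, an aldehyde reductase (-1.43 ± 0.14, adjusted p = 7.5e-08), fell and Bach2 rose (1.84 ± 0.53, adjusted p = 0.013).

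Of 38 tested glutathione, thioredoxin and dismutase neighbours, 12 were lower and 4 higher at iPSC day 12, beside 10.7% and 14% of all tested genes. At BM day 12, 8 were lower and 6 higher, beside 9.08% and 14.7%, so the counts of higher genes were near or below the share over all genes. In iPSC cells Sesn2, a sestrin, fell (-1.62 ± 0.20, adjusted p = 1.6e-06), while Txnip, the thioredoxin-binding protein, rose from 335, 303 and 547 to 1020.3, 827 and 907 CPM (1.22 ± 0.19, adjusted p = 3.0e-05), as did Ggt5, a gamma-glutamyltransferase (4.07 ± 0.62, adjusted p = 2.6e-05). In BM cells Glrx, glutaredoxin, rose (1.39 ± 0.21, adjusted p = 2.2e-05) after 237, 286 and 274 CPM at day 3 against 48.5, 40.6 and 31.1 at day 0, and Gsta4, an alpha-class transferase, rose from 0, 0.116 and 0 to 4.41, 2.28 and 5.58 CPM (adjusted p = 2.0e-05). Slc3a2, the heavy chain that pairs with Slc7a11, fell in BM cells (-0.77 ± 0.15, adjusted p = 3.7e-04), and so did Txn2, mitochondrial thioredoxin (-0.89 ± 0.19, adjusted p = 8.9e-04).

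Of 20 tested genes of the wider pentose phosphate, NADPH and selenocysteine supply, 2 were lower and 3 higher at iPSC day 12, beside the 10.7% and 14% of all genes. Prps2, phosphoribosyl pyrophosphate synthetase 2 (1.05 ± 0.22, adjusted p = 9.6e-04), and Nnt, mitochondrial transhydrogenase (0.94 ± 0.17, adjusted p = 2.7e-04), rose. Idh2, the mitochondrial isocitrate dehydrogenase that makes NADPH (-0.61 ± 0.16, adjusted p = 0.0065), and Me2, a mitochondrial malic enzyme (-0.69 ± 0.26, adjusted p = 0.049), fell. Pgls, Rpia, Rpe and H6pd, enzymes of the pathway itself, were on this list and were not among the 2 lower. At BM day 12, 1 was lower, Idh1, the cytosolic isocitrate dehydrogenase (-1.59 ± 0.18, adjusted p = 5.4e-07), and 5 were higher, beside 9.08% and 14.7% of all genes, among them Mthfd1 (1.19 ± 0.29, adjusted p = 0.0033) and Prps1 (1.18 ± 0.33, adjusted p = 0.010). Among NADPH oxidase genes, Cybb, the catalytic subunit of the phagocyte enzyme (0.59 ± 0.17, adjusted p = 0.011), and Ncf1, a cytosolic subunit (0.44 ± 0.16, adjusted p = 0.047), were higher at iPSC day 12, and Ncf4, another cytosolic subunit, was lower (-1.0 ± 0.15, adjusted p = 3.2e-05). At BM day 12 Ncf1 was higher (0.70 ± 0.16, adjusted p = 0.0022).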

How the data were processed

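Bulk RNA of 24 mouse macrophage libraries was sequenced in 2 sources and 4 time points with 3 libraries each, and groups were taken from the titles. The deposited table holds whole read-pair counts per gene. Per the file header, the authors counted exons of GENCODE vM9 genes with featureCounts 1.5.0-p1 ignoring strand and dropping multi-mapping read pairs and those over more than 1 gene; alignment with STAR to mm10 (GRCm38) is per the submitters' processing notes, and its version is not given in the sources used here. The protocol names ERCC spike-ins, and the table holds 0 such rows. Totals per library were 5839316 to 11805478.

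Symbols were looked up by Ensembl identifier; rows without a symbol held 0.0635% of counts and stayed in the fit. The filter filterByExpr, with a count of 10 and a total of 15 as minima across the 8 groups, left 15000 genes, all 31 members included. edgeR 4.0.16 in R 4.3.3 fitted all 24 libraries with TMM scaling, robust quasi-likelihood and 1 coefficient per group; 12 contrasts were tested and p-values adjusted by the Benjamini-Hochberg method over all tested genes. Standard errors are the absolute log2 fold change divided by the square root of F. Levels are CPM over TMM-scaled library sizes, and genes are compared only per kilobase of exon. The code was tested on simulated data. Alternatives were DESeq2 1.42.0, no scaling, no filter, an adjusted p below 0.01, leaving out genes under 1 CPM in both day 0 groups, fitting only the groups compared, a replicate block, leaving out each library and, chosen after seeing the data, leaving out both short-gene-rich iPSC libraries. Replicates differed by more than sampling noise (chi-square per degree of freedom 6.40 to 138), so none was counted as a duplicate. P-values measure the spread between these libraries.

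All 31 members, the roles and the neighbour lists were chosen with earlier results of these data known. Values in every library are given for 8 fixed genes and, in each role, the 2 called members with the largest change at day 12 of each source; Hmox1, Bach1 and, per neighbour list, the 2 called genes with the lowest adjusted p in each direction at day 12 are named, except that 1 item of the NADPH oxidase list, and with it the counts of that list, is not reported here.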

Additional observations from a re-analysis of the deposited data

Results flagged for a closer look

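For 19 members the change from day 0 to day 3 differed between the sources, by the test of the difference itself in edgeR, and for 18 members the change to day 12 did. Each value is the iPSC log2 change less the BM one, ± SE.

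At day 3 the regulators Sqstm1 (-2.02 ± 0.26) and Keap1 (-0.69 ± 0.23) differed. So did the glutathione genes Slc7a11 (-6.47 ± 1.05), Gclc (-2.02 ± 0.41), Gclm (-3.73 ± 0.79), Gss (-1.68 ± 0.33), Gsr (-3.69 ± 0.52), Abcc1 (-1.34 ± 0.29), Gpx1 (-1.20 ± 0.41) and Mgst1 (2.15 ± 0.40), of which Mgst1 alone was positive. The thioredoxin and peroxiredoxin genes were Srxn1 (-3.11 ± 0.39), Txnrd1 (-2.53 ± 0.45), Prdx1 (-1.58 ± 0.39) and Prdx6 (-2.51 ± 0.35). The NADPH genes were Pgd (-1.12 ± 0.16), Taldo1 (-1.21 ± 0.28), Tkt (-1.27 ± 0.18) and Me1 (-5.95 ± 1.17), and Osgin1 (-2.44 ± 0.42) completed the list. The Keap1 difference was lost without iPSC day 0 replicate 2, iPSC day 3 replicate 2 or 3, BM day 0 replicate 2 or 3 or BM day 3 replicate 2 or 3 (adjusted p up to 0.11). The Gpx1 difference was kept only in the fits without iPSC day 0 replicate 1, iPSC day 3 replicate 3, iPSC day 6 replicate 2 or 3, BM day 3 replicate 3, BM day 6 replicate 1 or 3 or BM day 12 replicate 1, and lost in the other 16 of 24 (adjusted p up to 0.11).

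At day 12 the regulators were again Sqstm1 (-1.97 ± 0.26) and Keap1 (-1.02 ± 0.24). The glutathione genes were Slc7a11 (-4.39 ± 1.11), Gclc (-2.23 ± 0.41), Gclm (-4.14 ± 0.80), Gss (-1.52 ± 0.33), Gsr (-1.81 ± 0.52), Abcc1 (-1.42 ± 0.29) and Mgst1 (2.39 ± 0.40). Srxn1 (-2.93 ± 0.39), Txnrd1 (-2.27 ± 0.45), Txn1 (-2.43 ± 0.84), Prdx1 (-1.16 ± 0.39) and Prdx6 (-2.09 ± 0.35) followed. Pgd (-0.83 ± 0.16), Taldo1 (-0.95 ± 0.28), Tkt (-1.26 ± 0.18) and Me1 (-4.99 ± 1.19) made up the NADPH genes. The Txn1 difference was kept only in the fits without iPSC day 3 replicate 1, 2 or 3 or iPSC day 6 replicate 1, 2 or 3, and lost in the other 18 of 24 (adjusted p up to 0.097). The Prdx1 difference was lost without iPSC day 0 replicate 1 or 2, iPSC day 3 replicate 1, iPSC day 6 replicate 1, iPSC day 12 replicate 1 or 2, BM day 0 replicate 1, 2 or 3, BM day 3 replicate 3 or BM day 12 replicate 2 or 3 (adjusted p up to 0.091).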

How the results depend on the processing

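Over the 8 alternatives that kept every library or left out a fixed pair, the counts of members called at iPSC days 3, 6 and 12, between the sources at day 0, and in both differences of change stayed within 1.5 times. Counts moved further as follows. At an adjusted p below 0.01 they became 6 at BM day 3, 3 at BM day 6, 5 at BM day 12, 7 for BM day 12 against day 3 and 1 between the sources at day 12. With only the groups compared they became 19 at BM day 3, 17 at BM day 6 and 3 for iPSC day 12 against day 3. With no filter on low counts they became 14 for iPSC day 12 against day 3 and 7 between the sources at day 12. Between the sources at day 12 there were 5 without scaling factors and 5 without both short-gene-rich iPSC libraries, an alternative chosen after seeing the data. The cause of these moves was not tested. Leaving out each library gave 3 to 13 at BM day 6, 6 to 13 at BM day 12, 6 to 11 for iPSC day 12 against day 3 and 1 to 3 between the sources at day 12. Without scaling factors the median of all genes shifted by -0.29 (the day 12 difference of change) to 0.18 (BM day 12). Of 372 single values, 365 kept their side of the threshold with DESeq2 and 7 gained a call. Among values called in the main fit or in the alternative, the 1 that turned sign was Sod1 at iPSC day 3. It was 0.00 with all libraries and -0.58 without the short-gene-rich pair. Sign changes of values called in neither fit were not counted.

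Replicate numbers were not taken to pair the samples. Not every pair of same-numbered libraries deviated together, which does not exclude a pairing. Deviations of same-numbered libraries correlated at -0.0545 to 0.161 in iPSC groups, with 4 of 18 pairs over 0.1, and at -0.0209 to 0.0397 in BM groups. With 3 numbers to match, 8 of 12 iPSC and 9 of 12 BM libraries were closest to their own number, a hint of pairing from the data only. A fit with a replicate block gave 16, 25 and 25 calls at iPSC days 3, 6 and 12, 12, 8 and 10 at BM days 3, 6 and 12, and left 355 of 372 single values on their side, with 7 lost and 10 gained.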
